A study of Rattus norvegicus with 9 samples.

Results

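The miR-148 and miR-152 family of rat cornea was followed here, in small RNA libraries of corneal allografts, isografts and normal corneas. Its members were taken by name as the 3 miRNAs rno-miR-148a-3p, rno-miR-148b-3p and rno-miR-152-3p (written without the species prefix from here on), which share a seed, out of 765 mature miRNAs listed in the deposited table. All 3 passed the filter on low values (at least 5 RPM, reads scaled to the size of the library, in at least 3 libraries), as did 281 miRNAs in all. The study holds 3 libraries of allograft cornea, 3 of isograft cornea and 3 of normal cornea, every one labelled as Wistar rat, 6 weeks of age, with no drug or genetic change named. By the meaning of the words, donor and recipient differ genetically in allografts and match in isografts, but the labels name neither the donor strain nor the time after surgery. A library is named here by its group with the 12, 34 or 56 of its title. What these numbers mean is not stated, and whether corneas were pooled is unknown. No label says that separate animals stand behind the libraries, so the p-values measure only how these libraries spread, and that spread may be technical.

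A miRNA guides the silencing complex to messenger RNAs mainly through its seed, bases 2 to 8 from its 5′ end, so members of a seed family can bind the same sites. The miR-148 and miR-152 family is known for repressing Dnmt1, the maintenance DNA methyltransferase. In mouse dendritic cells its members were described as restraining antigen presentation by repressing Camk2a, a calcium-dependent kinase. The family is also known for targeting the class I antigen HLA-G in human cells, and miR-148a is abundant in many epithelia and in liver.

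The mature sequences are shown because they fix what the members share and where they part, with the seed in capitals (RefSeq, build GRCr8, all 3 matched by name):
miR-148a-3p: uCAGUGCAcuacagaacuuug
miR-148b-3p: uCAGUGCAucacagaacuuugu
miR-152-3p: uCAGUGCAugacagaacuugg
The seed CAGUGCA was held at bases 2 to 8 by these 3 and by no other of the 693 distinct mature names in that RefSeq table, which matched 690 of the 765 listed miRNAs. Counted from 1 at the 5′ end, miR-148b-3p differs from miR-148a-3p at 2 of 21 positions (C9U and U10C) and is 1 base longer. miR-152-3p differs from miR-148a-3p at 3 of 21 positions (C9U, U10G and U20G) and from miR-148b-3p at 2 (C10G and U20G). With so few differences, reads could pass between members if mismatches were allowed in mapping. How the authors treated such reads is not given in the sources used here, so the split between members is uncertain.

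The members lie at separate genes. In GRCr8, miR-148a-3p is on the minus strand of chromosome 4 (81664447 to 81664467), miR-148b-3p on the plus strand of chromosome 7 (136299930 to 136299951) and miR-152-3p on the plus strand of chromosome 10 (82329435 to 82329455). These positions belong to that assembly and not to rn6, the build the submitters name. The gene Mir148b lies within the bounds of Copz1 and Mir152 within those of Copz2, paralogous genes for zeta subunits of the COPI vesicle coat, while no listed gene spans Mir148a. Exons and introns of these hosts were not analysed here.

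The libraries had between 11001459 and 12153889 reads in the RPM denominator, and the listed miRNAs made up between 26.4% (allograft 34) and 65.6% (normal 34) of them, so RPM also moves with the reads outside the table. The lowest read number of any member was 5300, for miR-148b-3p in normal 12, which gives 481 RPM with a 95% exact binomial interval of 468 to 494. This interval covers counting error alone, as PCR copies cannot be told from molecules without molecular identifiers. Within their groups, allograft 34 and isograft 12 stood high, and normal 34 low, in the summed level of 4 red blood cell miRNAs. These were miR-451-5p, both arms of miR-144 and miR-486. That sum was 19.7, 1068 and 18.5 RPM in allografts 12, 34 and 56, 181, 14.0 and 29.1 RPM in isografts 12, 34 and 56, and 313, 82.4 and 343 RPM in normals 12, 34 and 56. None of the 4 was at 0 in all libraries, and the part of blood in the results below was not tested. Allograft 34 and isograft 12 were also left out together. Results without them are given for fold changes of the members, ratios over miR-148b-3p, the miR-148a arm ratio, the family sum and the shares. All normal corneas are kept there, and their sums lie above those of every graft that remains. Those results are thus not free of a difference in blood miRNAs between grafts and normal corneas.

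In every library the order of levels was miR-148a-3p, then miR-152-3p, then miR-148b-3p, and within each group the ranges of the 3 did not overlap. miR-148a-3p alone made up 90.3% ± 2.81 of the family's reads in allografts, 87.8% ± 2.69 in isografts and 92.3% ± 0.937 in normal corneas (SD, n = 3 each). It was the third most abundant of all listed miRNAs by mean in allografts and isografts, and the second in normal corneas, where miR-184 stood above it at 288696 RPM and miR-203a-3p next below at 27270 RPM. Its range overlapped with that of the miRNA next below in all 3 groups, so the lower edge of its place is not settled beyond the spread. miR-152-3p ranked 41 in allografts, 27 in isografts and 31 in normal corneas, while miR-148b-3p kept nearly 1 place throughout, at 53, 52 and 53.

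**Figure D1:**
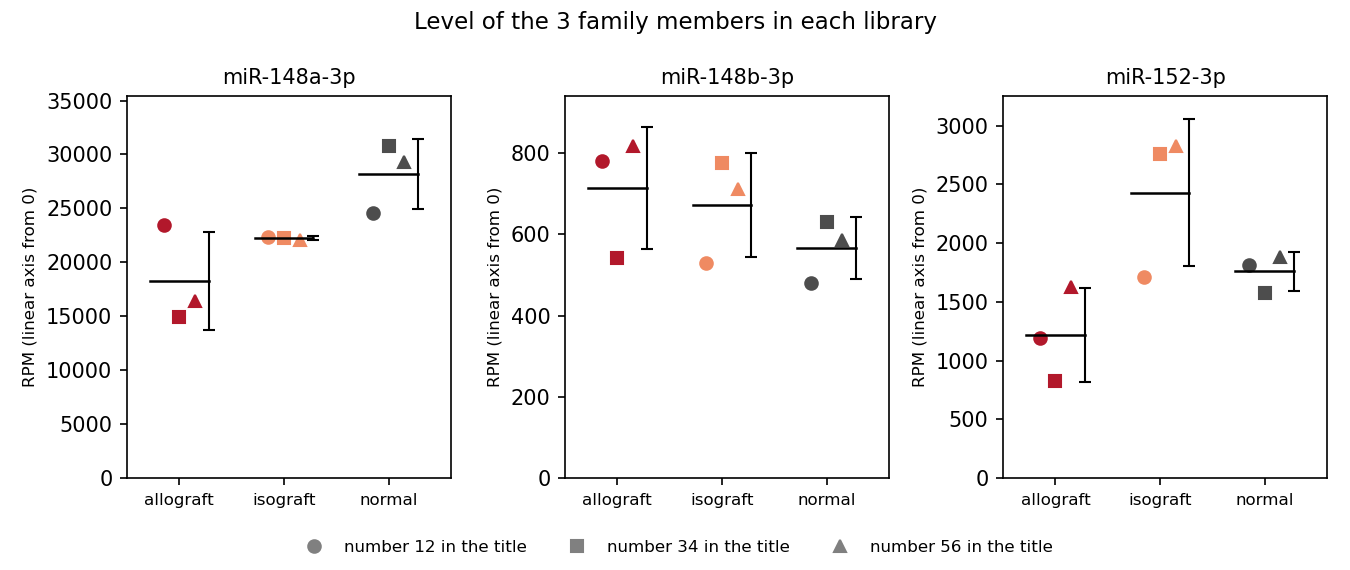
RPM of each member (linear axes from 0) in the allograft, isograft and normal libraries, with 1 symbol per library, a horizontal line at the group mean and a bar of ± 1 SD (n = 3). The allografts lie below the normal corneas for miR-148a-3p, and for miR-152-3p below the isografts, while the groups overlap for miR-148b-3p.

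Few members were called. All adjusted p-values here come from limma on log2(RPM + 1), with Benjamini-Hochberg adjustment over the 281 miRNAs tested and a threshold of 0.05. Of all miRNAs tested, 47.3% were called in allografts against normal corneas (23.1% higher and 24.2% lower), 21.4% in isografts against normal corneas (16.7% higher and 4.63% lower) and 34.5% in allografts against isografts (13.5% higher and 21% lower). Of the 3 members 0, 0 and 1 were called in these comparisons, and 3 members are too few to be set apart from those shares. Without adjustment 1 and 0 members passed 0.05 in limma in the comparisons with normal corneas, beside 54.8% and 28.5% of all miRNAs tested. On recovered whole reads edgeR and DESeq2, which also rescale the libraries by factors of their own, each called 2 and 0 members there. Of all miRNAs tested edgeR called 68.7% and 40.6% and DESeq2 69.4% and 42.3%. The counts of members do not stand apart from this background either. The groups did not overlap for 60.1%, 33.5% and 38.8% of the miRNAs tested, in the same order, and for 1, 1 and 1 of the members. The 3 comparisons share libraries and are not independent of each other.

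The summed level of the family was lower in both kinds of graft than in normal corneas on the RPM scale. It was 25390, 16335 and 18885 RPM in allografts 12, 34 and 56, 24624, 25811 and 25577 RPM in isografts, and 26868, 32965 and 31812 RPM in normal corneas. Neither graft group overlapped with the normal corneas, and allograft 12 lay inside the isograft range while the other allografts lay under it. The sum follows miR-148a-3p. Its difference, allografts minus normal corneas, was -10345 RPM in the deposited values but 2559 when the libraries were scaled to the sum of their listed miRNAs, so its direction depends on the scaling. Without isograft 12 and allograft 34 it was -8411 RPM.

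miR-148a-3p, the dominant member, did not pass the test in any comparison in deposited RPM. It was at 23414, 14966 and 16444 RPM in allografts 12, 34 and 56, at 22382, 22279 and 22041 RPM in isografts, and at 24570, 30760 and 29340 RPM in normal corneas. The isografts were nearly level with each other, and every graft lay below every normal cornea. Its log2 fold change was -0.65 in allografts against normal corneas (95% limits -1.27 to -0.03, adjusted p = 0.0776), -0.34 in isografts against normal corneas (-0.96 to 0.28, adjusted p = 0.553) and -0.31 in allografts against isografts (-0.93 to 0.31, adjusted p = 0.436). The call and the direction against normal corneas in allografts depend on the scaling, since it passed in RPM without miR-184 (-1.08, adjusted p = 0.00845) and was 0.0716 and did not pass when scaled to the sum of the listed miRNAs (adjusted p = 0.807). Without isograft 12 and allograft 34 the values were -0.52, -0.34 and -0.18 in the order of the comparisons above (adjusted p = 0.116, 0.404 and 0.692). As a percentage of the listed miRNA reads the groups overlapped, at 6.90%, 5.66% and 3.55% in the allografts, 6.08%, 4.09% and 4.51% in the isografts and 5.27%, 4.69% and 4.83% in the normal corneas.

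miR-152-3p fell in allografts against isografts. Its level was 1194, 827 and 1624 RPM in allografts 12, 34 and 56, against 1712, 2756 and 2825 RPM in isografts 12, 34 and 56, and the normal corneas lay between the group means at 1817, 1575 and 1886 RPM. The ranges of allografts and isografts did not overlap, though allograft 56 and isograft 12 lay close together, and allograft 56 reached into the range of the normal corneas. The log2 fold change was -1.02 in allografts against isografts (95% limits -1.73 to -0.31, adjusted p = 0.0234). Without isograft 12 and allograft 34 together it was -1.002 (adjusted p = 0.00647), but it missed the threshold without allograft 12 (-1.03, adjusted p = 0.0685), allograft 34 (-0.77, adjusted p = 0.115), isograft 34 (-0.91, adjusted p = 0.0863) or isograft 56 (-0.89, adjusted p = 0.113), and in a fit of these groups alone (adjusted p = 0.0778).

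Against normal corneas miR-152-3p did not pass, with -0.58 in allografts (-1.29 to 0.13, adjusted p = 0.173) and 0.43 in isografts (-0.27 to 1.14, adjusted p = 0.483). The allograft value missed the threshold in the deposited RPM. It passed on recovered whole reads in edgeR (-0.45, adjusted p = 0.0175) and DESeq2 (-0.47, adjusted p = 0.0159). In limma with the median of ratios it passed too (-0.46, adjusted p = 0.0166). All of these rescale the libraries, so they are not separate support. The allograft value also passed without allograft 56 at -0.82 (adjusted p = 0.0487). It was further from passing without allograft 34 (-0.33, adjusted p = 0.477), and it turned to 0.14 when scaled to the sum of the listed miRNAs (adjusted p = 0.523), so its direction also depends on the scaling. Without isograft 12 and allograft 34 it was -0.33 in allografts (adjusted p = 0.343) and 0.67 in isografts (adjusted p = 0.0673).

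miR-148b-3p, the scarcest member, stood at 782, 542 and 817 RPM in allografts 12, 34 and 56, at 531, 776 and 711 RPM in isografts 12, 34 and 56, and at 481, 630 and 587 RPM in normals 12, 34 and 56. All 3 groups overlapped, and the lowest allograft and the lowest isograft were the libraries with the highest red blood cell sums of their groups. This did not hold in the normal corneas, where normal 12 was lowest and normal 56 had the highest such sum, though their sums were close (313 and 343 RPM). In each group the library with the lowest such sum (allograft 56, isograft 34 and normal 34) had the highest miR-148b-3p. Whether the level and the sum are linked was not tested. In deposited RPM its log2 fold changes were 0.32 in allografts against normal corneas (-0.38 to 1.03, adjusted p = 0.460), 0.24 in isografts against normal corneas (-0.47 to 0.94, adjusted p = 0.731) and 0.08 in allografts against isografts (-0.62 to 0.79, adjusted p = 0.891). The first of these passed in settings that rescale the libraries. On recovered reads it was 0.47 in edgeR (adjusted p = 0.0258) and 0.46 in DESeq2 (adjusted p = 0.0302). With median-of-ratios scaling in limma it was 0.44 (adjusted p = 0.0328). Scaled to the sum of the listed miRNAs it was 1.04, but in RPM computed without miR-184 it was -0.11 and did not pass, so its direction depends on the scaling. Without isograft 12 and allograft 34 it was 0.51, 0.40 and 0.11 in the 3 comparisons (adjusted p = 0.142, 0.325 and 0.811).

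Scaling mattered for the size of every value. Over the 281 miRNAs, the log2 fold changes in allografts against normal corneas had a median of -0.14 in deposited RPM, -0.02 with the median of ratios, -0.56 without miR-184 and 0.54 with the sum of the listed miRNAs. The calls in that comparison were 65 higher and 68 lower in deposited RPM, against 105 and 92, 51 and 105, and 142 and 44 under these other scalings, in that order. A scaling shifts all miRNAs of a library alike, so a member's distance from the median hardly changes by construction, and the narrow ranges given next are no sign of a stable direction. Relative to the median of all miRNAs in allografts against normal corneas, miR-148b-3p lay at 0.45 to 0.50 under these 4 scalings, miR-152-3p lay at -0.45 to -0.41 and miR-148a-3p at -0.52 to -0.47. In allografts against isografts miR-152-3p lay at -0.73 to -0.70 relative to that median, miR-148b-3p at 0.37 to 0.40 and miR-148a-3p at -0.02 to 0.01.

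In isografts against normal corneas the 3 lay on either side of the median, miR-152-3p at 0.38 to 0.42, miR-148b-3p at 0.18 to 0.22 and miR-148a-3p at -0.40 to -0.36. The calls there were 67 higher and 47 lower with the median of ratios, 38 and 24 without miR-184, and 107 and 15 with the sum of the listed miRNAs, against 47 and 13 in deposited RPM. In allografts against isografts they were 80 and 89, 33 and 74, and 86 and 55 under the same scalings, against 38 and 59.

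**Figure D2:**
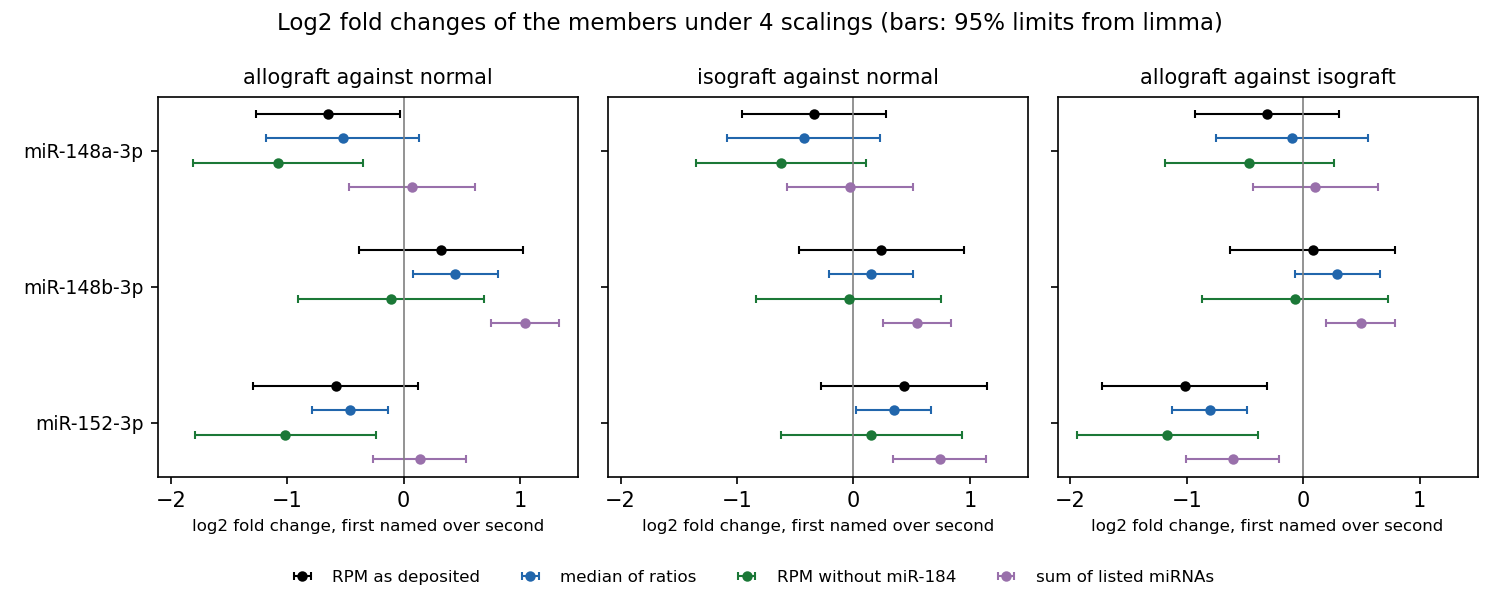
Log2 fold changes of the 3 members (points) with 95% limits from limma (bars) in the 3 comparisons, under deposited RPM and 3 other scalings, with a grey line at 0. For miR-152-3p in allografts against isografts all 4 bars stay below 0, with points from -1.17 without miR-184 to -0.61 with the sum of the listed miRNAs, while the side of 0 changes with the scaling for miR-148b-3p in all 3 comparisons.

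Ratios between members inside a library do not depend on the RPM denominator. Those over miR-148b-3p differed between the groups with all libraries kept, but not in every setting, as given below. How often ratios of other pairs of miRNAs differ between these groups was not computed. miR-148a-3p was 29.9, 27.6 and 20.1 times as abundant as miR-148b-3p in allografts 12, 34 and 56, 42.2, 28.7 and 31.0 times in isografts 12, 34 and 56, and 51.1, 48.8 and 50.02 times in normal corneas. The normal libraries were almost equal, every graft lay below them, and isograft 12 lay nearest to them. On the log2 scale the mean ratio was 4.67 ± 0.303 in allografts, 5.06 ± 0.294 in isografts and 5.64 ± 0.0317 in normal corneas (SD, n = 3 each), and the groups differed by an exact permutation test over the 1680 assignments (two-sided p = 0.00714, adjusted p = 0.0214 over the 3 ratios). The allografts were lower by 0.97 than the normal corneas, and the isografts by 0.58, with exact p = 0.1 for each, the smallest that 3 libraries against 3 allow.

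miR-152-3p was 1.53, 1.53 and 1.99 times as abundant as miR-148b-3p in allografts 12, 34 and 56, against 3.23, 3.55 and 3.97 times in isografts, and 3.78, 2.50 and 3.21 times in normal corneas. All allografts were below all other libraries, and isografts and normal corneas overlapped. The mean log2 ratio was 0.74 ± 0.219 in allografts, 1.83 ± 0.15 in isografts and 1.64 ± 0.299 in normal corneas (SD, n = 3 each), and the groups differed (exact permutation test, two-sided p = 0.0143, adjusted p = 0.0214). The log2 difference was -1.10 in allografts against isografts and -0.90 in allografts against normal corneas, with exact p = 0.1 for each, and 0.19 in isografts against normal corneas (exact p = 0.4).

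Both log2 differences of allografts from normal corneas stayed negative with any single library left out, but with some libraries left out, or with the title's number as a block, the ratios fell short of the 0.05 threshold. The adjusted exact permutation p was 0.0643 for miR-148a-3p over miR-148b-3p without any single normal library, and likewise 0.0643 for miR-152-3p over miR-148b-3p without normal 34 or normal 56. It was 0.0571 for both without isograft 12 and allograft 34, where the log2 differences of allografts from normal corneas were -1.02 and -0.84, and 0.0833 for both with the block.

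The third ratio, miR-148a-3p over miR-152-3p, was 19.6, 18.1 and 10.1 in allografts, 13.1, 8.08 and 7.80 in isografts and 13.5, 19.5 and 15.6 in normal corneas. The isografts lay below the normal corneas, with isograft 12 close to normal 12, and the allografts spread across both. Over the 3 groups this ratio did not pass (exact permutation test, two-sided p = 0.111, adjusted p = 0.111).

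**Figure D3:**
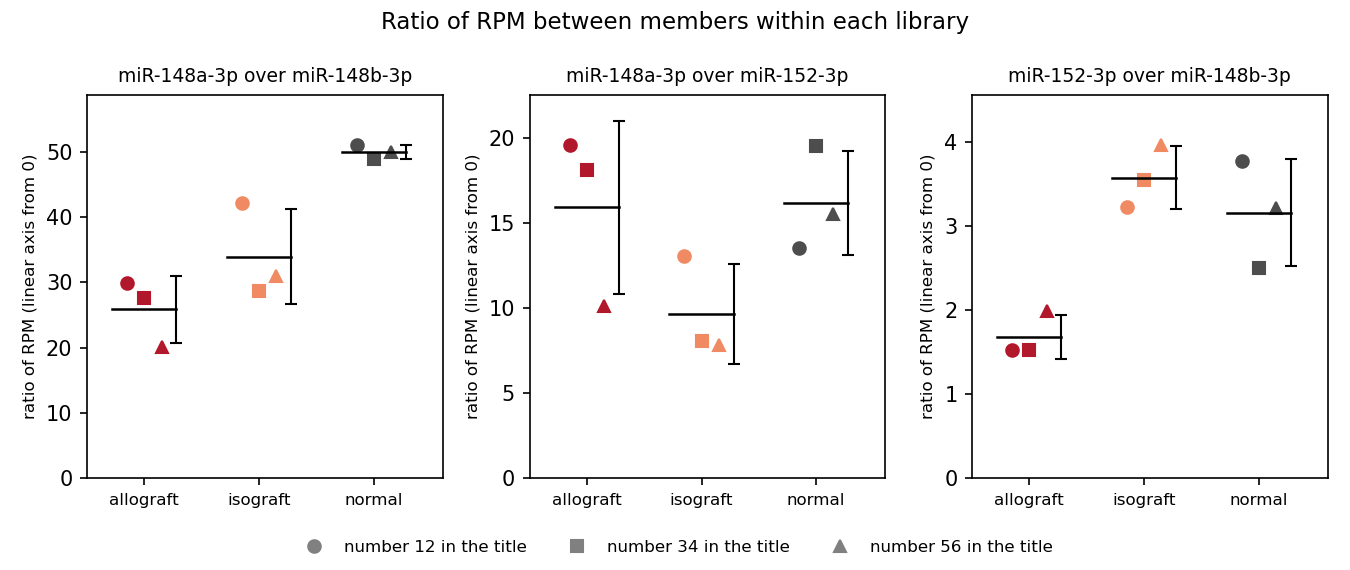
Ratios of RPM between members within each library (linear axes from 0), with 1 symbol per library, a line at the group mean and a bar of ± 1 SD (n = 3). The ratio of miR-148a-3p to miR-148b-3p is 48.8 to 51.1 in normal corneas and lower in each graft, and that of miR-152-3p to miR-148b-3p is 1.53 to 1.99 in allografts and 2.50 or more elsewhere.

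The make-up of the family restates these ratios and is no separate evidence, since miR-148a-3p holds most of the family's reads. miR-148b-3p held 3.08%, 3.32% and 4.33% of the family's RPM in allografts 12, 34 and 56, 2.15%, 3.01% and 2.78% in isografts, and 1.79%, 1.91% and 1.84% in normal corneas. No groups overlapped in this share, though isograft 34 and allograft 12 lay close together, and it was highest in allografts. miR-152-3p held 4.70%, 5.06% and 8.60% in allografts, 6.95%, 10.7% and 11.04% in isografts and 6.76%, 4.78% and 5.93% in normal corneas, so its share was highest in the isografts 34 and 56. Without isograft 12 and allograft 34 the mean share in allografts minus that in normal corneas was -2.68 percentage points for miR-148a-3p, 1.86 for miR-148b-3p and 0.83 for miR-152-3p.

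Each hairpin also yields a 5p arm, usually the arm that is degraded, which gives a separate measurement from the same precursor. The Mir148a hairpin is shown to place its arms, with the 3p arm in capitals (RefSeq, GRCr8, minus strand):
Mir148a hairpin: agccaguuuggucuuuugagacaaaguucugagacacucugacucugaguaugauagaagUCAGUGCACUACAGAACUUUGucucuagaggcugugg
The 5p arms have seeds of their own, shown here in capitals to set them apart from the family seed:
miR-148a-5p: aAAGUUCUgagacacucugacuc
miR-152-5p: aGGUUCUGugauacacuccgacu
The 3p arm was far more abundant than the 5p arm in all 3 hairpins. miR-148a-5p was at 132, 94.8 and 145 RPM in allografts 12, 34 and 56, at 58.2, 119 and 120 RPM in isografts, and at 103, 129 and 120 RPM in normal corneas. Isograft 12 was the lowest library and the groups overlapped.

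The ratio of miR-148a-3p to miR-148a-5p was 177, 158 and 113 in allografts, 385, 187 and 184 in isografts and 238, 239 and 244 in normal corneas. Allografts lay below all other libraries, normal corneas were nearly equal, and isograft 12 lay far above the other isografts. Over the 3 groups the ratio did not pass (exact permutation test on the log2 ratio, two-sided p = 0.132, adjusted p = 0.295 over the 3 hairpins). Without isograft 12 it passed (adjusted p = 0.0214), but with any other single library left out it did not (adjusted p = 0.22 to 0.571). Without isograft 12 and allograft 34, which again drops isograft 12, the adjusted p was 0.0286. The log2 difference of allografts from normal corneas was -0.71 with all libraries and -0.76 without that pair.

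miR-148b-5p was scarce, at 6.45, 6.09 and 9.54 RPM in allografts, 3.21, 7.64 and 6.54 RPM in isografts and 3.09, 3.45 and 5.09 RPM in normal corneas. It was higher in every allograft than in every normal cornea, with a log2 fold change of 0.78 (adjusted p = 0.0768), which did not pass. miR-152-5p was at 5.36, 2.27 and 4.91 RPM in allografts, 5.18, 10.7 and 8.45 RPM in isografts and 6.90, 4.82 and 5.90 RPM in normal corneas. Its log2 fold change in allografts against isografts was -0.83 (-1.58 to -0.08, adjusted p = 0.0788), beside -1.02 for the 3p arm.

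In deposited RPM with all libraries none of the 5p arms passed in limma, and without adjustment 1 of 3 passed 0.05 in allografts against normal corneas and 1 of 3 in allografts against isografts, where 54.8% and 44.5% of all miRNAs tested did. Other settings called some of them. For miR-148b-5p in allografts against normal corneas limma passed with the median of ratios (0.88, adjusted p = 0.00107), the sum of the listed miRNAs (1.37, adjusted p = 0.000261), a fit of these groups alone (adjusted p = 0.0407), without isograft 12 (adjusted p = 0.0236) and without isograft 12 and allograft 34 (0.88, adjusted p = 0.0162), and recovered reads gave 1.04 in edgeR (adjusted p = 0.00116) and 1.03 in DESeq2 (adjusted p = 0.000854).

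In allografts against isografts edgeR called 58% and DESeq2 60.9% of all miRNAs tested. There miR-148a-5p was at 0.62 in edgeR (adjusted p = 0.0104), 0.60 in DESeq2 (adjusted p = 0.00228) and 0.59 with the median of ratios in limma (adjusted p = 0.00703). miR-148b-5p was at 0.62 in edgeR (adjusted p = 0.0218), 0.61 in DESeq2 (adjusted p = 0.0523) and 0.54 with the median of ratios (adjusted p = 0.0218). miR-152-5p lay at -0.70 in edgeR (adjusted p = 0.0542), -0.72 in DESeq2 (adjusted p = 0.0398), -0.65 with the median of ratios (adjusted p = 0.0339), -0.97 in RPM without miR-184 (adjusted p = 0.0462) and -1.08 without isograft 12 (adjusted p = 0.00541). These calls of the 5p arms thus rest on the scaling, the tool or the libraries kept. Scaled to the sum of the listed miRNAs, miR-148a-5p also passed in allografts against normal corneas (0.78, adjusted p = 0.00455) and against isografts (0.78, adjusted p = 0.00683), and miR-148b-5p in isografts against normal corneas (0.66, adjusted p = 0.0296) and in allografts against isografts (0.71, adjusted p = 0.0188).

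The ratio of the 3p to the 5p arm did not pass for miR-148b (log2 difference of allografts from normal corneas -0.46, exact permutation p = 0.196) or miR-152 (-0.13, exact permutation p = 0.604).

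**Figure D4:**
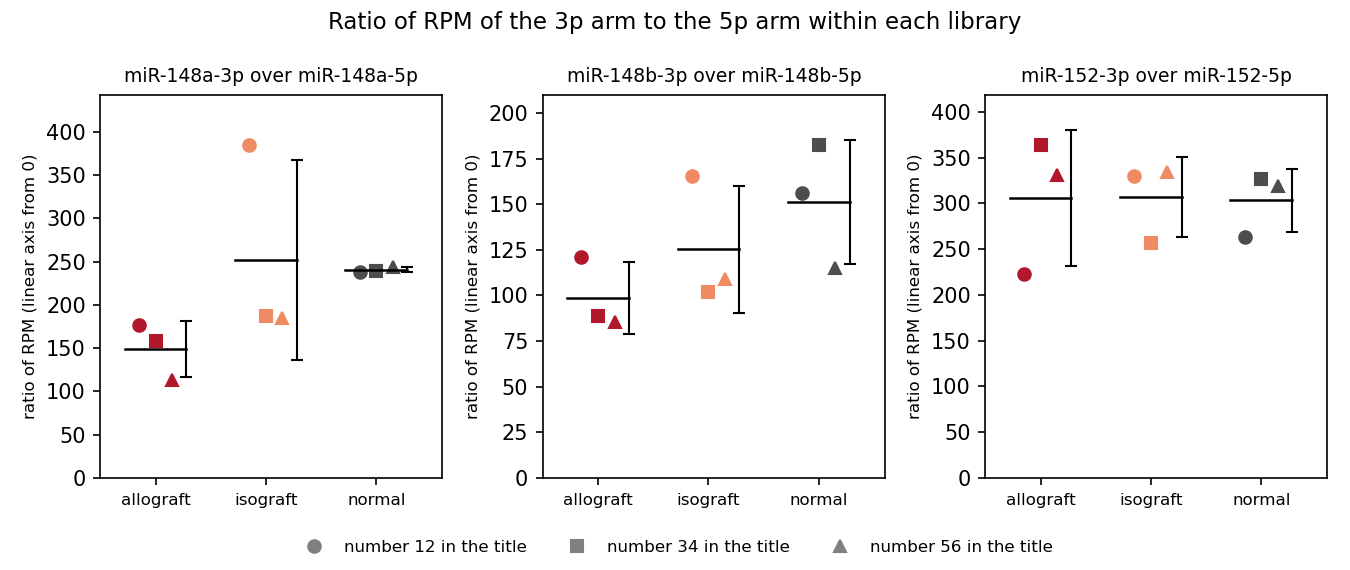
Ratio of the RPM of the 3p arm to that of the 5p arm of each hairpin within each library (linear axes from 0), with 1 symbol per library, a line at the group mean and a bar of ± 1 SD (n = 3). For miR-148a the normal corneas lie at 238 to 244 and the allografts at 113 to 177, with isograft 12 at 385, and for the other hairpins the groups overlap.

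The members also differed in which miRNAs they resembled over the 9 libraries, by Pearson correlation of log2(RPM + 1). These values describe libraries that share their group and their RPM denominator, and carry no p. The miRNAs most like miR-148a-3p were miR-184 (r = 0.88), the dominant miRNA of corneal epithelium, miR-200a-5p (0.86), miR-671 (0.84), miR-134-5p (0.83) and miR-30e-3p (0.82). Those least like it were the myeloid miR-223-3p (-0.87), miR-501-3p (-0.87) and miR-146b-3p (-0.85). miR-152-3p was nearest to miR-23b-3p (0.96), miR-181d-5p (0.95), miR-181a-2-3p (0.93), let-7b-5p (0.93) and its own 5p arm (0.93), and farthest from miR-17-2-3p and miR-7a-5p (-0.59 each) and miR-130b-5p (-0.57). miR-148b-3p was nearest to let-7g-5p (0.95), miR-106b-3p (0.90), miR-103-3p (0.90), miR-3068-3p (0.87) and miR-140-3p (0.87).

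The miRNAs least like miR-148b-3p were blood and liver ones, namely miR-451-5p (-0.94), miR-486 (-0.87) and miR-122-5p (-0.74). Between members the correlation was 0.40 for miR-148a-3p with miR-152-3p, 0.27 for miR-148b-3p with miR-152-3p and -0.16 for miR-148a-3p with miR-148b-3p. No member was among the 5 most like another. The 5p arm of miR-148b ranked 11 of all miRNAs in likeness to its 3p arm (0.82), whereas that of miR-148a ranked 138 (0.10).

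Markers of several cell types moved along with the groups, and in whole corneas fewer cells of a type cannot be told apart from less RNA per cell. The summed level of 9 epithelial miRNAs was 37454 to 91465 RPM in allografts, 159475 to 194924 RPM in isografts and 272030 to 421726 RPM in normal corneas. Of these 9, 8 fell in allografts against normal corneas, where 24.2% of all miRNAs tested fell and miR-148a-3p stood at -0.65. In allografts against isografts 3 of 9 fell, beside 21% of all miRNAs tested, and miR-148a-3p stood at -0.31. In isografts against normal corneas 4 of 9 fell, beside 4.63% of all miRNAs tested, and miR-148a-3p stood at -0.34. The summed level of 7 miRNAs of stroma and smooth muscle was 11397 to 21574 RPM in allografts, 17134 to 36103 RPM in isografts and 8192 to 10206 RPM in normal corneas. Of these 7, 2 fell in allografts against isografts, where 21% of all miRNAs tested fell and miR-152-3p fell. The list median there was -0.90 against -0.29 for all miRNAs tested. In allografts against normal corneas 5 of 7 rose, beside 23.1% of all miRNAs tested. The list median there was 1.83, while miR-152-3p stood at -0.58. In isografts against normal corneas 6 of 7 rose, beside 16.7% of all miRNAs tested. The list median there was 3.15, and miR-152-3p stood at 0.43.

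The summed level of 7 leukocyte miRNAs was 2370 to 4133 RPM in allografts, 173 to 351 RPM in isografts and 58.7 to 70.7 RPM in normal corneas, and all 7 rose in allografts against isografts and against normal corneas. In isografts against normal corneas 6 of these 7 rose. For endothelium, 2 miR-126a arms summed to 2955 to 4874 RPM in allografts, 2095 to 6150 RPM in isografts and 346 to 857 RPM in normal corneas. Both rose in each graft group against normal corneas, and neither passed between the graft groups. The 5 muscle miRNAs summed to 25.7 to 34.6 RPM in allografts, 49.6 to 89.7 RPM in isografts and 202 to 285 RPM in normal corneas, and of the 2 abundant enough to test both fell in each graft group against normal corneas. Of the red blood cell miRNAs 2 were tested, and 1 fell in each graft group against normal corneas. Of all miRNAs tested, 23.1% rose and 24.2% fell in allografts against normal corneas. In isografts against normal corneas 16.7% rose and 4.63% fell, and in allografts against isografts 13.5% rose and 21% fell. No marker on these lists was at 0 in every library, and the part of any of these cell types in the members' values was not tested.

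The miR-130 and miR-301 family carries the letters CAGUGCA moved by 1 base, at bases 1 to 7, as miR-130a-3p shows with its own seed in capitals:
miR-130a-3p: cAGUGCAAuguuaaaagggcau
These miRNAs were scarce beside the miR-148 and miR-152 family. The 4 of them (miR-130a-3p, miR-130b-3p, miR-301a-3p and miR-301b-3p) summed to 21.5 to 48.6 RPM in allografts, 19.8 to 40.5 RPM in isografts and 44.6 to 57.2 RPM in normal corneas. Only miR-130a-3p was abundant enough to test, and it fell in allografts against normal corneas by 0.99 on the log2 scale (adjusted p = 0.0499). That value is at the edge of the threshold. It missed it with 5 RPM added before the log in place of 1 (adjusted p = 0.0518) and with no filter (adjusted p = 0.0713). It passed more clearly in edgeR (-0.87, adjusted p = 0.00293) and in RPM without miR-184 (-1.42, adjusted p = 0.00407), but not scaled to the sum of the listed miRNAs (-0.29, adjusted p = 0.308) or without allograft 12 (-0.75, adjusted p = 0.251), allograft 34 (-0.87, adjusted p = 0.145), isograft 56 (adjusted p = 0.0564) or any single normal library (adjusted p = 0.0878 to 0.156). In isografts against normal corneas miR-130a-3p was at -0.63 in deposited RPM and did not pass (adjusted p = 0.365). There it passed in edgeR (-0.74, adjusted p = 0.012), in DESeq2 (-0.74, adjusted p = 0.00199) and with the median of ratios in limma (-0.72, adjusted p = 0.0118).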

How the data were processed

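9 small RNA libraries of rat cornea were used. Per the labels' protocols, Trizol was used to extract RNA, and the library kit was Illumina TruSeq small RNA. The authors deposited RPM values for 765 miRNAs in 9 columns, each matched to a library by its title, with 0 columns unused. The tools bcl2fastq and BWA and the build rn6 are named per the submitters' processing notes, with versions, trimming, annotation and treatment of multiply matching reads not given in the sources used here. Dividing by the step of the RPM values recovered whole reads for 100% of values (within 0.1 read).

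Members and lists were chosen with earlier results of these data known. The low-value filter was 5 RPM or more in 3 or more libraries (281 kept), and log2(RPM + 1) values were fitted with limma 3.58.1 (R 4.3.3, mean-variance trend) over all libraries, so fold changes understate those of low miRNAs. Ratios were compared by exact permutation, and sums and shares over members are described without a test. Named miRNAs were the members, their 5p arms, the 5 most and 3 least correlated with each, neighbours in abundance and fixed marker lists. Alternatives on recovered reads were edgeR 4.0.16 and DESeq2 1.42.0, each with its own scaling factors. In edgeR 193, 114 and 163 miRNAs passed (allograft against normal, isograft against normal, allograft against isograft). In the same order 195, 119 and 171 passed in DESeq2, and 133, 60 and 97 in limma. Other scalings, filters and left-out libraries are given at the end. The fit was tested on simulated data without shifts of whole libraries in RPM, so that test does not cover the effect of scaling.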

Additional observations from a re-analysis of the deposited data

How the results depend on the processing

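Each fold change was refitted under 23 alternatives, including other pseudocounts, no filter and robust variances. miR-148a-3p in isografts against normal corneas kept its direction and stayed short of the threshold in all 23. Values that changed were as follows, and where the change was not one of scaling or of fewer libraries or miRNAs its cause was not tested. In RPM without miR-184, allografts against normal corneas passed for miR-148a-3p (-1.08, adjusted p = 0.00845) and miR-152-3p (-1.02, adjusted p = 0.021), and miR-148b-3p turned to -0.11, -0.0429 and -0.0705 in allografts against normal, isografts against normal and allografts against isografts, while the summed family difference grew to -22348 RPM. Scaled to the sum of the listed miRNAs, miR-148a-3p turned to 0.0716 in allografts against normal corneas and 0.10 in allografts against isografts, miR-152-3p turned to 0.14 in allografts against normal corneas and the summed family to 2559. That scaling passed miR-148b-3p at 1.04, 0.55 and 0.49 in the same order and miR-152-3p in isografts against normal corneas at 0.74. The median of ratios, edgeR and DESeq2 passed miR-148b-3p (0.44, 0.47 and 0.46) and miR-152-3p (-0.46, -0.45 and -0.47) in allografts against normal corneas. miR-152-3p in allografts against isografts passed in 18 of 23 alternatives, and was -1.02 and not past the threshold in a fit of the 2 groups alone.

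The counts called moved by more than 1.5 times with a filter at 50 RPM (63, 30 and 44 in allografts against normal, isografts against normal and allografts against isografts), with the median of ratios (114 in isografts against normal and 169 in allografts against isografts), likewise with edgeR (114 and 163) and DESeq2 (119 and 171), and in isografts against normal corneas with the sum of the listed miRNAs (122). With single libraries left out, the count in allografts against isografts ran from 52 (without allograft 34) to 147 (without isograft 12).

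With 1 library left out, miR-152-3p ran from -0.82 to -0.33 in allografts against normal corneas from -1.25 to -0.77 in allografts against isografts and from 0.31 to 0.67 in isografts against normal corneas. miR-148b-3p ran from 0.21 to 0.51, 0.13 to 0.40 and -0.0816 to 0.27 in allografts against normal, isografts against normal and allografts against isografts, and miR-148a-3p from -0.50 to -0.18 in allografts against isografts. The log2 ratios, as allografts minus normal corneas, ran from -1.08 to -0.80 for miR-148a-3p over miR-148b-3p, -0.24 to 0.23 for miR-148a-3p over miR-152-3p and -1.06 to -0.77 for miR-152-3p over miR-148b-3p. The arm ratios ran from -0.85 to -0.53 for miR-148a and -0.24 to 0.0357 for miR-152, the share of miR-152-3p from -0.94 to 1.01 percentage points and that of miR-148a-3p from -2.98 to -0.41 percentage points. Leaving out isograft 12 and allograft 34 was added for ratios, sums and shares after seeing the data, and gave -1.02 and -0.84 for the ratios over miR-148b-3p (no longer passing) and -0.76 for the miR-148a arm ratio (passing).

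Libraries with the same number did not steadily deviate together. Correlations of deviations from group means lay between -0.51 and 0.56 over 9 pairs. Of 18 best matches between a library and another group, 4 went to its own number. The numbers were not taken as pairs, but this check cannot exclude pairing, because deviations within a group of 3 sum to 0. With the number as a replicate block the calls were 143, 66 and 112, no member's call changed, and the ratios over miR-148b-3p, -0.97 and -0.90, missed the threshold. No result with the block is given for sums and shares, which are described without a test. With 3 libraries a group, exact permutation tests between single pairs of groups cannot go below p = 0.1, and reads were not limiting for any member.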
